A study of Homo sapiens with 6 samples.

Results

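The genes described are 10 genes of zinc storage, sensing and transport among the 62700 genes of a count table from human PC3 cells. They were chosen by symbol: the metallothioneins MT2A, MT1E, MT1X, MT1F, MT1G and MT1M, the zinc sensor MTF1, the zinc exporter SLC30A1 and the zinc importers SLC39A10 and SLC39A14. PC3 is an established prostate cancer line, grown here in a serum-containing medium, and the labels name no added metal. Total RNA depleted of ribosomal RNA was sequenced from 3 libraries of cells labelled shNC with the genotype WT, called control shRNA here, and from 3 libraries labelled as TTC3 knockdown. A short hairpin RNA (shRNA) directs degradation of a matching messenger RNA, and TTC3 encodes a ubiquitin ligase. Neither the number of hairpins, nor clonality, nor separate culture of the libraries is stated, so the p-values speak only for the spread among the libraries at hand, which may be technical.

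Metallothioneins are small proteins rich in cysteine that bind zinc and copper and so buffer the free metal in the cell. MTF1 is a transcription factor that is activated by zinc and binds metal response elements, short motifs upstream of the metallothionein genes and of SLC30A1, which moves zinc out of the cell. The SLC39A proteins move zinc into the cytosol, and normal prostate epithelium is known for accumulating zinc.

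The 6 metallothionein members lie in 1 cluster on chromosome 16, and their messages are close copies, so the sequences are shown for the 3 that had counts enough to test. Each of the 6 has a coding sequence of 186 bases in GENCODE 29 (build GRCh38) spread over 3 exons, with 20 TGC or TGT codons, the codons for cysteine. The MT2A coding sequence spans chr16:56608656-56609354, that of MT1X chr16:56682541-56684049 and that of MT1F chr16:56658059-56659164, all on the plus strand with introns between. In the lines below, capitals in MT1X and MT1F mark bases that differ from MT2A at the same place.
MT2A: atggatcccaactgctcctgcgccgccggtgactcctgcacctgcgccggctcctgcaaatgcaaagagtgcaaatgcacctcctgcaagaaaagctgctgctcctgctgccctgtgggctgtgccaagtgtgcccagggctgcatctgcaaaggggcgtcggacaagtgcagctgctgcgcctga
MT1X: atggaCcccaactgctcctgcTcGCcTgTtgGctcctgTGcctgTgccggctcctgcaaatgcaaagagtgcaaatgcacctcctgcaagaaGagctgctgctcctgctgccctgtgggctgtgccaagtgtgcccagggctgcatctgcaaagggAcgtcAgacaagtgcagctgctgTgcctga
MT1F: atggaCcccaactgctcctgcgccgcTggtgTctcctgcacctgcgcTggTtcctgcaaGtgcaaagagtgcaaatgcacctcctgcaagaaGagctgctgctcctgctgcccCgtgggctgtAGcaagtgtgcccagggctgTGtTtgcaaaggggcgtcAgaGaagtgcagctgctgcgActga

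MT1X differed from MT2A at 14 bases of its coding sequence (92.5% identity) and MT1F differed from MT2A at 16 bases (91.4%). MT1F and MT1X differed from each other at 21 bases (88.7%). Of the 50-base stretches of the most counted transcript, 45.1% also occurred in a transcript of another gene for MT1X, against 7.52% for MT2A and 3.59% for MT1F. The level of MT1X is therefore the most exposed to reads shared with other copies, and how the authors divided such reads is not given in the sources used here. SLC30A1, SLC39A10 and SLC39A14 had 0 shared stretches, and MTF1 had 0.644%.

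The libraries held 143246356 to 155526861 estimated counts. Levels are given as CPM, counts divided by the TMM-scaled library size. The targeted gene TTC3 had a level of 687 ± 7.86 CPM in controls against 196 ± 27.5 CPM after its knockdown (SD over 3 libraries), or 28.6% of control. Of 6 epithelial markers 2 rose (KRT18, 163 to 236 CPM, and EPCAM, 4.42 to 5.50 CPM), 1 fell (the adhesion gene CDH1, 1.97 to 0.599 CPM, log2 change -1.72) and 3 did not pass, among them the keratin KRT8 (165 and 166 CPM). EPCAM lies on chromosome 2 and was at 0.35, 0.31 and 0.28 in log2 against control in TTC3 shRNA replicates 1, 2 and 3. The median of 711 protein-coding genes of that chromosome was 0.41, 0.29 and 0.27. KLK3, KLK2, CD3E and CDH5 had 0 counts in every library. Of 4 fibroblast markers COL1A1 rose (19.0 to 75.9 CPM), LUM fell (0.415 to 0.203 CPM), and COL1A2 and DCN were at most 0.139 CPM. The summed level, nearly all COL1A1, was 18.9 to 19.9 CPM in controls and 43.7 to 102 CPM in TTC3 shRNA cells. The 5 leukocyte markers summed to 12.9 to 17.5 and 16.3 to 38.4 CPM, nearly all CD68 (14.1 to 28.7 CPM, a rise), while CD14 fell (0.890 to 0.352 CPM), and the 3 endothelial markers to 4.69 to 5.64 and 2.63 to 3.52 CPM. The part of these in the results below was not tested. TTC3 shRNA replicate 1 stood apart from replicates 2 and 3 of its group on the second principal component of log2 CPM (14.3% of variance). The difference of log2 CPM from control had a slope of -0.03, -0.16 and -0.19 for each doubling in length of a protein-coding transcript in replicates 1, 2 and 3 of the knockdown. The slope per 10 percentage points of GC content was -0.02, 0.28 and 0.32. Mitochondrially encoded genes took 6.29%, 3.73% and 3.54% of counts in the same libraries, against 5.29% to 5.53% in controls. Because these trends separate replicate 1 from replicates 2 and 3, each member is given library by library.

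Of the 10 members, 7 had counts enough to be tested, and 5 of those passed edgeR's quasi-likelihood test at an adjusted p below 0.05. MT2A, MT1F, SLC30A1 and SLC39A14 rose and MTF1 fell in TTC3 shRNA cells, while MT1X and SLC39A10 did not pass. Over all 24325 tested genes 33.6% passed, 15.7% higher and 17.8% lower, so 4 higher and 1 lower of 7 is read against that. The median log2 fold change was 0.36 over the 7 members and -0.02 over all genes. The 3 TTC3 shRNA libraries lay on 1 side of all controls for 5 of 7 members (4 higher, 1 lower), against 50.3% of all genes (23.3% higher, 27.0% lower). The count depended on single libraries, as did that of all genes. Without TTC3 shRNA replicate 1, 7 of 7 passed (5 higher and 2 lower, where 54.1% of genes passed, 26.3% higher and 27.8% lower). Without any other single library 2 of 7 passed, MT1F and SLC39A14. In those fits 4546 of 25037 genes (without control replicate 1) to 6300 of 25353 (without TTC3 shRNA replicate 3) passed. With library totals alone 2 of 7 passed (32.4% of all genes; 10.4% higher, 22.0% lower), and with the length trend removed 4 of 7 (35.3% of all genes; 13.0% higher, 22.3% lower).

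**Figure D1:**
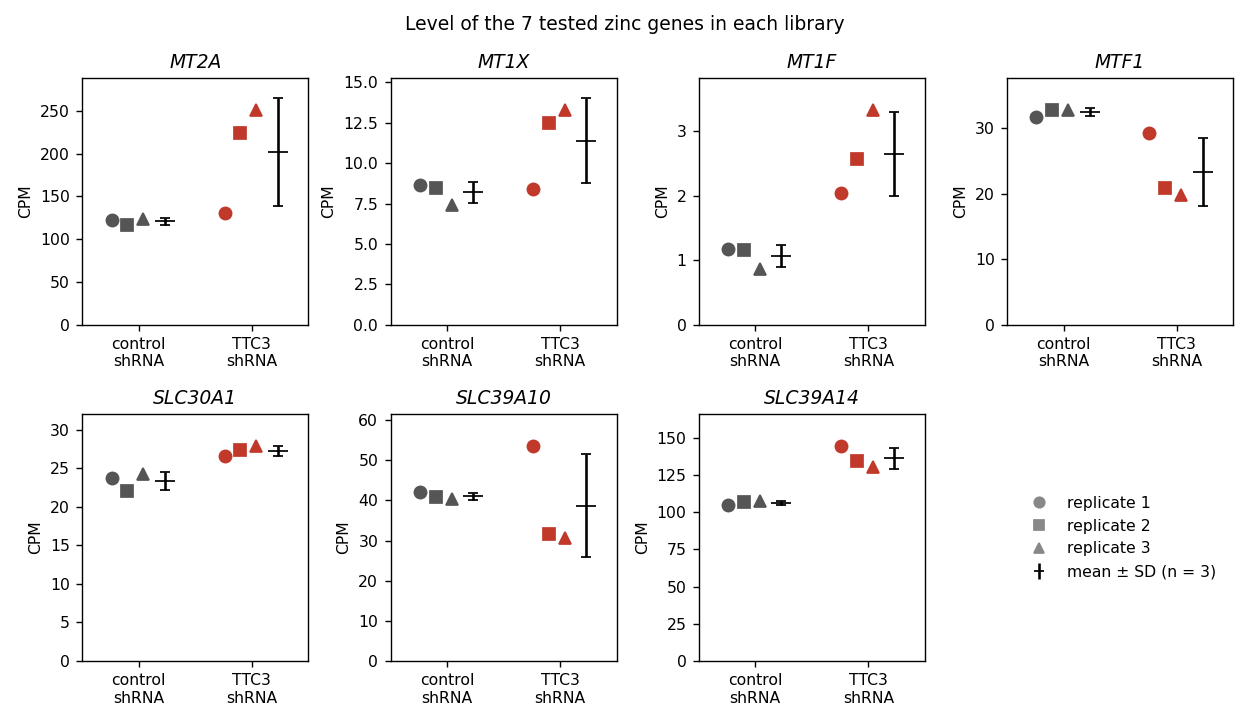
Level of the 7 tested zinc genes in CPM (vertical axes from 0) in each library of control shRNA cells (grey) and TTC3 shRNA cells (red), with the shape giving the replicate number and the bar the mean ± SD of 3 libraries. MT1F, SLC30A1 and SLC39A14 are higher in all 3 TTC3 shRNA libraries, whereas MT2A, MT1X and MTF1 move mainly in replicates 2 and 3 and SLC39A10 moves in opposite directions.

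MT2A was by far the most abundant metallothionein. It (ENSG00000125148.7, chr16:56608199-56609497 in GENCODE 29) was at 122, 117 and 124 CPM in control replicates 1, 2 and 3 and at 130.0, 224 and 251 CPM in TTC3 shRNA replicates 1, 2 and 3. The groups did not overlap, but replicate 1 was close to the controls while replicates 2 and 3 were 1.86 and 2.08 times the control mean. The rise of MT2A was 0.74 ± 0.22 in log2 (SE; adjusted p = 0.0389 by edgeR), from 121 ± 3.70 to 202 ± 63.4 CPM (SD, n = 3). The call was lost without any of the 3 controls or without TTC3 shRNA replicate 2 or 3 (adjusted p up to 0.122), and the log2 change was 0.99 without replicate 1 (adjusted p = 4.44e-06). With library totals alone the MT2A change was 0.60 (adjusted p = 0.0542).

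MT1F showed the largest relative change of the members. Its estimated counts (ENSG00000198417.7, chr16:56657694-56660698) were 189, 187 and 129 in controls and 307, 353 and 478 in TTC3 shRNA cells. In CPM these were 1.18, 1.16 and 0.864 against 2.04, 2.58 and 3.33, so every TTC3 shRNA library was above every control, replicate 1 included. MT1F rose by 1.31 ± 0.22 on the log2 scale (adjusted p = 0.00523), 2.48-fold by the group means. It passed the test in all 19 alternative analyses, with log2 changes of 0.77 to 1.48. Despite that rise MT1F stayed rare: it had 1.35 ± 0.210 counts for each 100 of MT2A in TTC3 shRNA cells, and 0.887 ± 0.164 in controls (SD, n = 3).

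MT1X followed MT2A in outline but did not pass. It (ENSG00000187193.9, chr16:56682424-56684196) was at 8.66, 8.47 and 7.43 CPM in controls and 8.39, 12.5 and 13.3 CPM in TTC3 shRNA replicates 1, 2 and 3. Replicate 1 lay within the control range and replicates 2 and 3 above it. The log2 change of MT1X was 0.48 with a 95% interval of 0.06 to 0.90 and an adjusted p of 0.0787. Without replicate 1 it was 0.67 and passed (adjusted p = 0.000422).

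The remaining metallothionein members were at or near 0. MT1E and MT1G were at 0 counts in all 6 libraries, and MT1M was at 0 except for 4 counts in TTC3 shRNA replicate 3. For MT1E and MT1G, 0 of 450620947 control counts allows a level of up to 0.00637 CPM, and 0 of 451003175 TTC3 shRNA counts up to 0.00695 CPM (3 counts over the group, counting error only). Their 50-base stretches occurred in other genes for 20.2% of MT1G, 7.05% of MT1M and 5.34% of MT1E, so most of each message could be told from its copies. Other metallothionein genes were as silent: of 15 further rows for metallothionein genes and pseudogenes, 12 had 0 counts everywhere, among them MT1A, MT1B, MT1H, MT3 and MT4, and none had enough counts to be tested. The pseudogenes MT1P1 (61 counts in all), MT1XP1 (52) and MT1P3 (3) held the few that remained.

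Summed over the 21 metallothionein rows, the level was 132, 126 and 132 CPM in controls and 141, 240 and 268 CPM in TTC3 shRNA replicates 1, 2 and 3. MT2A made up 92.3% to 93.7% of that sum in every library, so the family total tracked MT2A alone. Per kilobase of each gene's most counted transcript, the control level of MT2A was 208 CPM per kb, against 18.2 for MT1X and 1.55 for MT1F. Counts for MT2A were divided between 2 transcripts, ENST00000245185.6, which carries the coding sequence printed above, and ENST00000561491.1, whose coding sequence differs. The first held 45.6%, 48.7% and 46.9% of MT2A counts in controls and 45.2%, 52.6% and 54.6% in TTC3 shRNA replicates 1, 2 and 3. Both estimates were higher in replicates 2 and 3, at 118 and 137 CPM for the first and 106 and 114 CPM for the second, against control means of 56.8 ± 1.20 and 63.9 ± 3.57 CPM. Isoforms share most of their sequence, so these divisions are uncertain.

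Short messages as a class were higher in TTC3 shRNA replicates 2 and 3. Among 213 protein-coding genes with transcripts of 400 to 700 bases, the class that holds MT2A (581 bases), MT1X (450) and MT1F (690.0), the median log2 difference from control was 0.15, 0.45 and 0.50 in replicates 1, 2 and 3. MT1X, at 0.04, 0.61 and 0.70, lay within the middle 50% of that class in all 3 libraries. MT2A, at 0.11, 0.89 and 1.05, lay above the class's upper quartile (0.77 and 0.85) in replicates 2 and 3 and within its middle range in replicate 1. MT1F, at 0.94, 1.27 and 1.64, lay above the upper quartile (0.31, 0.77 and 0.85) in every library. Each length is that of the gene's most counted transcript. The other MT2A transcript, ENST00000245185.6, has 786 bases. Genes of 700 to 1000 bases had medians of 0.15, 0.44 and 0.52, with upper quartiles of 0.30, 0.72 and 0.86. With each library's length trend removed, the log2 change was 0.92 for MT1F (adjusted p = 0.00776), 0.30 for MT2A (adjusted p = 0.111) and 0.01 for MT1X (adjusted p = 0.965). In that fit the median log2 change of all tested genes was -0.14, against -0.02 in the main fit.

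**Figure D2:**
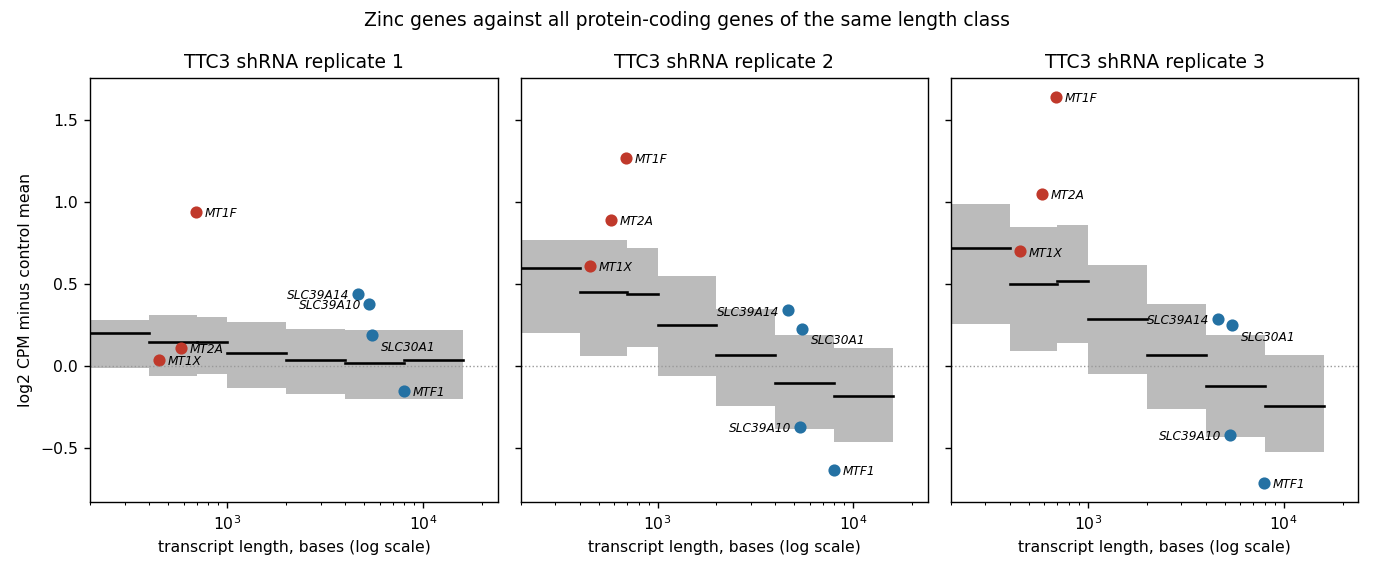
Difference of log2 CPM from the control mean (vertical axis) against transcript length in bases (log axis) for each TTC3 shRNA replicate. Black lines give the median and grey boxes the middle 50% of protein-coding genes in each of 7 length classes, red points are metallothioneins and blue points the other members. MT1F lies above the middle 50% of its class in all 3 replicates, MT2A in replicates 2 and 3, and MT1X in none.

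MTF1, the zinc-activated transcription factor that drives metallothionein genes, went the other way. It (ENSG00000188786.10, chromosome 1, 37809567 to 37859620) was at 31.7, 32.7 and 32.7 CPM in controls and 29.1, 20.9 and 19.7 CPM in TTC3 shRNA replicates 1, 2 and 3. All 3 TTC3 shRNA libraries were below the controls, replicate 1 by the least. MTF1 fell by 0.48 ± 0.15 on the log2 scale (adjusted p = 0.0429), to 71.9% of the control mean. The call was lost without any of the 3 controls or without TTC3 shRNA replicate 2 or 3 (adjusted p up to 0.144). The MTF1 message is long, 7972 bases, and 3231 protein-coding genes of 4000 to 8000 bases had median differences of 0.02, -0.10 and -0.12. With the length trend removed MTF1 fell by 0.39 (adjusted p = 0.0234), where the median of all tested genes was -0.14.

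Promoter sequences are shown because MTF1 is known to act through a motif whose core is TGCACNC or TGCGCNC. Both heptamers were searched on both strands in the 250 bases before the start of each of 35116 RefSeq promoters (build GRCh38.p14), a table that held 5 of the 10 members. At least 1 match occurred in 24.8% of promoters and at least 4 in 0.370%. MT2A had 7 matches (5 on the plus strand) and MT1X 4, while SLC30A1 had 1 and MTF1 and both starts listed for SLC39A10 had 0. The windows are chr16:56608334-56608583 for MT2A and chr16:56682220-56682469 for MT1X, on the plus strand, and chr1:211579162-211579411 for SLC30A1, on the minus strand. Each is printed from its far end to the base before the start, with the matches of either strand in capitals.
MT2A: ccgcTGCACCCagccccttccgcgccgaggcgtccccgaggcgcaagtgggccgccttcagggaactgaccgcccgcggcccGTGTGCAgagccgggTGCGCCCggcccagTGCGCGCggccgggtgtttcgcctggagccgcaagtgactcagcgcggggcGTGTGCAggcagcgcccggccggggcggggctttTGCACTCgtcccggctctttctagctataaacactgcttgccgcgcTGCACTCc
MT1X: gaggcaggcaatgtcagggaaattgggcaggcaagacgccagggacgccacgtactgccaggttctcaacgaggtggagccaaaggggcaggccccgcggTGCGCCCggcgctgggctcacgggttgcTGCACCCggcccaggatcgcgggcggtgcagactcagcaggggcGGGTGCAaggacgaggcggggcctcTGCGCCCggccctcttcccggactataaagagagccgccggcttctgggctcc
SLC30A1: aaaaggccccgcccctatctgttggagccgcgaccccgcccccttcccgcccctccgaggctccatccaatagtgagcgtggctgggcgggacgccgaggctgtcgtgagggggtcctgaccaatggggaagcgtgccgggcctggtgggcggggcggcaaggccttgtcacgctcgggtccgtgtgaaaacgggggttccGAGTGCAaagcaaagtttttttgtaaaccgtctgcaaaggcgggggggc

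Matches were not limited to expressed genes. MT1H, at 0 counts in all 6 libraries, had 8 matches, and MT1B and MT4, also at 0, had 3 each. A match is a description of letters in this window, and MTF1 binding was not measured. GENCODE 29 places the start of the MT2A gene, that of ENST00000245185.6, further upstream, at 56608199. The other MT2A transcript, ENST00000561491.1, starts at 56608606, after the end of the printed window. The MT1X window ends at 56682469, past the start of the MT1X gene in GENCODE 29 at 56682424. The windows are thus upstream of the RefSeq starts but not of every GENCODE 29 start.

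SLC30A1, the exporter of zinc at the cell surface and itself a known MTF1 target, was slightly higher in TTC3 shRNA cells. It (ENSG00000170385.10, chromosome 1, 211571568 to 211578742) was at 23.7, 22.0 and 24.3 CPM in controls and 26.6, 27.4 and 27.9 CPM in TTC3 shRNA replicates 1, 2 and 3. The groups did not overlap and the TTC3 shRNA libraries were close to each other (27.3 ± 0.655 CPM, SD, n = 3). SLC30A1 rose by 0.22 ± 0.07 on the log2 scale (adjusted p = 0.0418), 1.17-fold. The call was lost without any of the 3 controls or without TTC3 shRNA replicate 2 or 3 (adjusted p up to 0.172). It was lost too with library totals alone, where the log2 change was 0.09 (adjusted p = 0.341) and the median of all genes moved from -0.02 to -0.15. With the length trend removed SLC30A1 was higher by 0.28 (adjusted p = 0.0299), where the median of all tested genes was -0.14.

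SLC39A14, an importer of zinc, iron and manganese, was higher in all 3 TTC3 shRNA libraries. It (ENSG00000104635.15, chromosome 8, 22367249 to 22434129) was at 105, 107 and 107 CPM in controls and 144, 134 and 130.4 CPM in TTC3 shRNA replicates 1, 2 and 3. The groups did not overlap, and here replicate 1 was the highest. SLC39A14 rose by 0.36 ± 0.06 on the log2 scale (adjusted p = 0.00533), 1.28-fold, and passed without any single library (adjusted p up to 0.0393). With library totals alone the log2 change was 0.23 and did not pass (adjusted p = 0.0650). Of its 4 transcripts ENST00000381237.6 held 94.1% to 98.5% of the counts in each library, at 102 ± 1.68 CPM in controls and 132 ± 4.15 CPM in TTC3 shRNA cells, not tested separately. The next, ENST00000359741.10, varied from 1.34 to 7.58 CPM with no separation of the groups.

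SLC39A10, a plasma membrane zinc importer that MTF1 is known to repress, differed among the TTC3 shRNA libraries. It (ENSG00000196950.14, chromosome 2, 195575977 to 195737702) was at 42.0, 40.8 and 40.4 CPM in controls and 53.5, 31.8 and 30.7 CPM in TTC3 shRNA replicates 1, 2 and 3. Replicate 1 was above all controls and replicates 2 and 3 below them, so the SD of the group was 12.9 CPM against 0.869 CPM in controls. The log2 change of SLC39A10 was -0.09, with a 95% interval of -0.57 to 0.40 and an adjusted p of 0.778. Without replicate 1 it was -0.38 (adjusted p = 8.36e-05), and without replicate 2 or replicate 3 it was 0.04 and 0.06. The 711 protein-coding genes of chromosome 2 had a median log2 difference of 0.41, 0.29 and 0.27 in the same libraries, whereas genes of chromosomes 1, 8 and 16 had medians of -0.05 to 0.17. SLC30A6 (0.46, 0.01 and -0.04), COMMD1 (0.53, 0.64 and 0.70) and STEAP3 (0.82, 0.99 and 1.00), named below, also lie on chromosome 2. SLC39A10 (0.38, -0.37 and -0.42) was close to its chromosome's median in replicate 1 and below it in replicates 2 and 3. Transcript ENST00000409086.7, which starts upstream of the main one, held 10.4% of its counts in control replicate 3, 8.60% in TTC3 shRNA replicate 1 and at most 0.104% in the other 4 libraries.

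**Figure D3:**
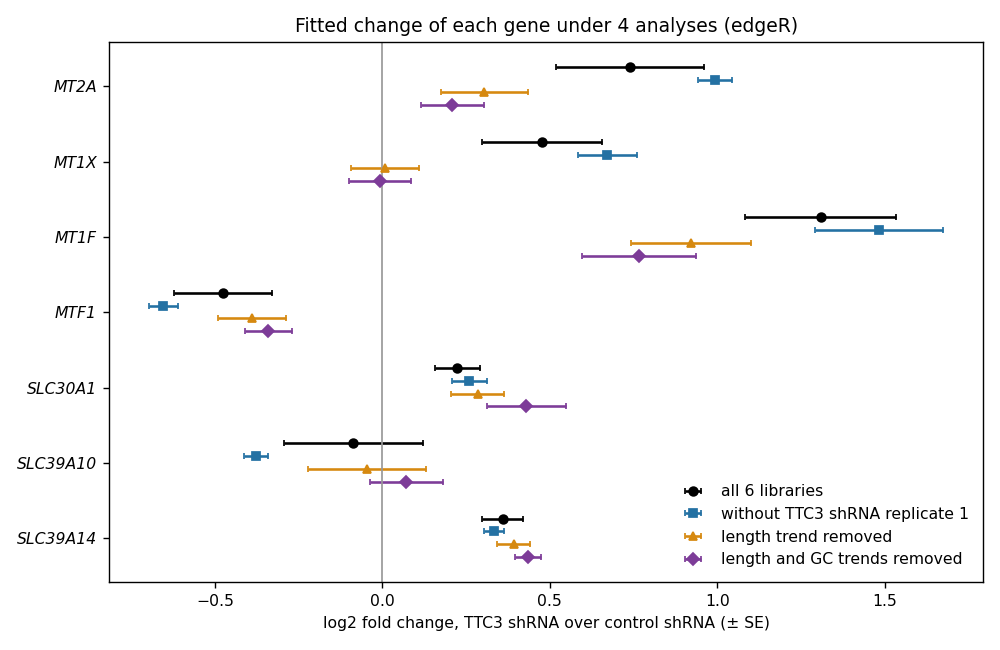
Fitted log2 fold change of TTC3 shRNA over control shRNA (horizontal axis, bars ± SE, edgeR) for the 7 tested members with all 6 libraries, without TTC3 shRNA replicate 1, with the length trend removed, and with length and GC trends removed. MT1F and SLC39A14 stay above 0 throughout, MT1X moves to about 0 once the length trend is removed (0.01), and SLC39A10 changes from -0.38 without replicate 1 to 0.07 with both trends removed.

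Of 10 exporter genes, SLC30A1 to SLC30A10, 7 were tested, 1 rose (SLC30A1), 2 fell (SLC30A4 and SLC30A9) and 4 did not pass, with a median log2 change of -0.38, where 15.7% of all genes rose and 17.8% fell. SLC30A4, which loads zinc into vesicles, went from 9.87 ± 0.704 to 5.50 ± 1.24 CPM and fell by 0.84 ± 0.17 on the log2 scale (adjusted p = 0.00875). It was lower in every TTC3 shRNA library, by 0.51, 1.02 and 1.06 below the control mean in log2 CPM. SLC30A9, a mitochondrial zinc transporter, went from 54.5 ± 1.97 to 36.3 ± 8.67 CPM and fell by 0.58 ± 0.16 (adjusted p = 0.0267). The transporters of the secretory pathway SLC30A5, SLC30A6 and SLC30A7 had log2 changes of -0.26, 0.16 and -0.38, none past the test. SLC30A7 lay below all controls in all 3 TTC3 shRNA libraries (adjusted p = 0.0707) and passed with DESeq2 (adjusted p = 0.0407), and SLC30A6 was called higher with length and GC trends removed (adjusted p = 0.00159). Family medians were -0.07, -0.52 and -0.60 in TTC3 shRNA replicates 1, 2 and 3. Without TTC3 shRNA replicate 1, 5 of 7 tested exporters were lower and 1 higher, where 27.8% of all genes were lower and 26.3% higher. Without any other single library SLC30A4 was the only exporter past the test. In those fits 2711 of 25037 genes (without control replicate 1) to 3559 of 25353 (without TTC3 shRNA replicate 3) were lower.

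The importer family was mixed. Of 14 importer genes, SLC39A1 to SLC39A14, 12 were tested, 2 rose (SLC39A4 and SLC39A14), 1 fell (SLC39A6) and 9 did not pass, with a median log2 change of -0.02. These are 3 of 12, against 33.6% of all genes (15.7% higher, 17.8% lower). Without TTC3 shRNA replicate 1, 5 of 13 were higher and 3 lower, where 54.1% of all genes passed. SLC39A4, the importer that takes up dietary zinc in the intestine, went from 35.0 ± 1.17 to 71.3 ± 26.2 CPM. It rose by 1.03 ± 0.26 on the log2 scale (adjusted p = 0.0225), with 0.26, 1.18 and 1.40 in replicates 1, 2 and 3. The SLC39A4 transcript has 66.6% GC. The 414 protein-coding transcripts of at least 65% GC had medians of -0.04, 0.56 and 0.67, with upper quartiles of 0.20, 0.85 and 1.01. SLC39A6, an importer at the cell surface, fell from 101 ± 1.98 to 72.5 ± 13.7 CPM (log2 change -0.49 ± 0.13, adjusted p = 0.0248). SLC39A6 was at -0.20, -0.62 and -0.69 in replicates 1, 2 and 3. Transcripts of 40 to 45% GC, its class, had medians of 0.06, -0.15 and -0.18. Both calls were lost without any of the 3 controls or without TTC3 shRNA replicate 2 or 3 (adjusted p up to 0.0821 for SLC39A4 and 0.0938 for SLC39A6). SLC39A14 passed in each of these 5 fits, alone among importers except without TTC3 shRNA replicate 3, where the barely expressed SLC39A5 was also called lower. SLC39A1 was at 0.03, 0.88 and 0.84 in the 3 TTC3 shRNA libraries and did not pass (log2 change 0.63, adjusted p = 0.0642). The most abundant importer, SLC39A9, was at 375 ± 2.51 and 324 ± 44.3 CPM and did not pass (adjusted p = 0.146). Summed over the 14 genes, importers were at 977 to 986 CPM in controls and 995 to 1022 CPM in TTC3 shRNA cells, whereas the 10 exporters summed to 222 to 229 CPM in controls and to 231, 176 and 173 CPM in TTC3 shRNA replicates 1, 2 and 3.

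**Figure D4:**
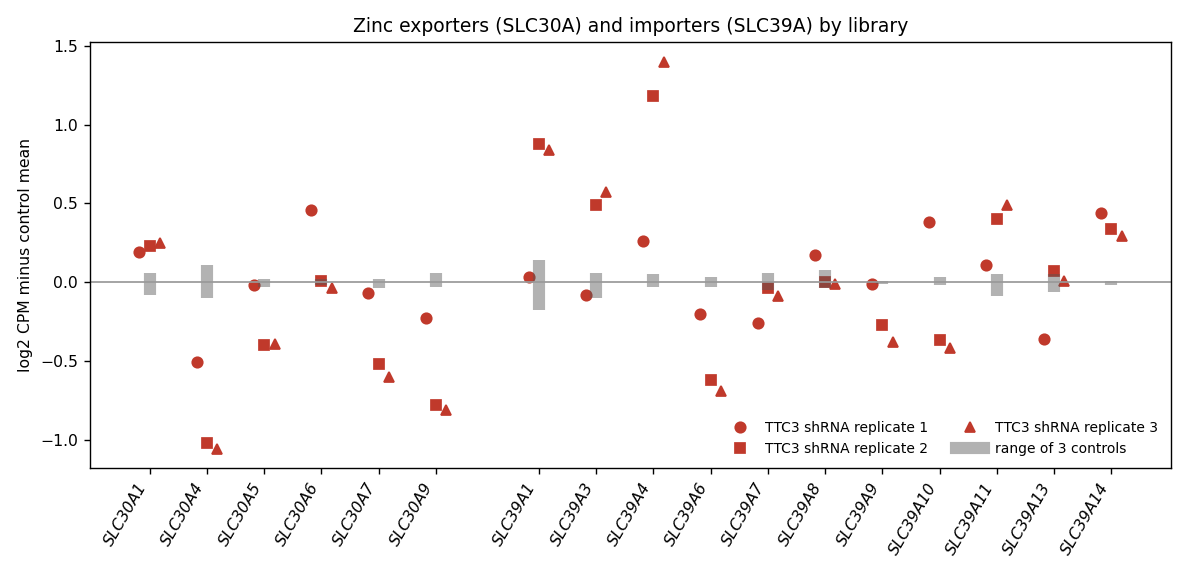
Difference of log2 CPM from the control mean (vertical axis) for the tested exporter (SLC30A) and importer (SLC39A) genes with a control mean of at least 1 CPM. Red symbols are the 3 TTC3 shRNA libraries and grey bars the range of the 3 controls. SLC30A1, SLC39A4, SLC39A11 and SLC39A14 are above the controls in all 3 libraries. SLC30A4, SLC30A9 and SLC39A6 are among those below in all 3. SLC39A10 and SLC39A1 differ between replicate 1 and replicates 2 and 3.

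Copper is the other metal that metallothioneins buffer, and 5 of 11 copper-handling genes rose while 1 fell (median log2 change 0.28), against 15.7% and 17.8% of all genes. With library totals alone 3 were higher and 2 lower, where 10.4% of all genes were higher and 22.0% lower. The copper chaperone ATOX1 rose by 0.58 ± 0.09 on the log2 scale (adjusted p = 0.00291) and CCS, which loads copper into superoxide dismutase, by 0.81 ± 0.17 (adjusted p = 0.0119). COMMD1, involved in copper export, rose by 0.62 ± 0.10, and the copper pump ATP7A fell by 0.63 ± 0.11. Their transcripts are 488 bases long for ATOX1, 911 for COMMD1, 1430.0 for CCS and 8483 for ATP7A. With the length trend removed 2 copper genes were higher and 1 lower, where 13.0% of all genes were higher and 22.3% lower. ATOX1 was at 0.14 in that fit (adjusted p = 0.142). The copper count was 2 higher without control replicate 1 and 3 higher without control replicate 2 or 3. In those fits 1835 of 25037 genes (without control replicate 1) to 1876 of 25176 (without control replicate 3) were higher. It was 7 higher and 3 lower without TTC3 shRNA replicate 1, where 26.3% of all genes were higher and 27.8% lower.

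Iron genes, listed because SLC39A14 also carries iron, had 3 of 11 members higher and 6 lower (median -0.24), against 15.7% and 17.8% of all genes. STEAP3, which reduces endosomal iron, rose from 42.8 ± 0.873 to 82.0 ± 5.66 CPM. The ferritin heavy chain FTH1 fell from 3410.0 ± 71.9 to 1767 ± 265 CPM, with the ferrous iron transporter SLC11A2 (log2 change -0.73 ± 0.10) and the iron-responsive regulator IREB2 (-0.74 ± 0.11) also lower. These 4 genes had adjusted p of at most 0.00288 and passed without any single library. The ferritin light chain FTL, named after its values were seen, rose by 0.55 ± 0.10 (adjusted p = 0.00596). The number lower was 3 without any 1 of the 3 controls or without TTC3 shRNA replicate 2 or 3. In those fits 2711 of 25037 genes (without control replicate 1) to 3559 of 25353 (without TTC3 shRNA replicate 3) were lower.

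Genes of the heme and oxidant response, which metals can also induce, had 4 of 11 members higher and 2 lower (median 0.08), against 15.7% and 17.8% of all genes. HMOX1, the inducible heme oxygenase, fell by 1.07 ± 0.09 on the log2 scale (adjusted p = 0.000250) and was lower in all 3 TTC3 shRNA libraries by 0.96 to 1.13. TXNRD1, a thioredoxin reductase, fell by 0.83 ± 0.07, while the quinone reductase NQO1 rose by 0.68 ± 0.07 and the cystine transporter SLC7A11 by 0.64 ± 0.12. The number higher was 2 without any 1 of the 3 controls or without TTC3 shRNA replicate 2 or 3. In those fits 1835 of 25037 genes (without control replicate 1) to 2741 of 25353 (without TTC3 shRNA replicate 3) were higher. The number lower was 4 without TTC3 shRNA replicate 1, where 27.8% of all genes were lower.

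Glucocorticoid hormones also induce metallothionein genes, and of 7 tested glucocorticoid-linked genes 0 rose, 4 fell and 3 did not pass (median -0.61), against 15.7% of all genes higher and 17.8% lower. The glucocorticoid receptor NR3C1 fell by 0.61 ± 0.09 on the log2 scale (adjusted p = 0.00260), and the hormone-responsive genes ERRFI1, DUSP1 and PER1 fell by 1.42 ± 0.12, 0.78 ± 0.12 and 0.62 ± 0.08. The 3 that did not pass, named after their values were seen, were TSC22D3, FKBP5 and SGK1, with log2 changes of -0.34, 0.07 and 0.01. The count of 4 lower was the same without each of the 6 libraries in turn. In those fits 2711 of 25037 genes (without control replicate 1) to 7065 of 25416 (without TTC3 shRNA replicate 1) were lower.

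Of 9 tested genes beside the metallothionein cluster on chromosome 16, 3 rose and 1 fell, with a median log2 change of 0.00, against 15.7% and 17.8% of all genes. NUP93, a nuclear pore protein, rose by 0.35 ± 0.07 and BBS2 by 0.20 ± 0.06, both smaller than MT1F at 1.31, though the differences between genes were not tested. NLRC5, an activator of antigen presentation genes, fell by 2.65 ± 0.24. The number that rose was 1 without control replicate 1 or 2 or TTC3 shRNA replicate 2 or 3, and 0 without control replicate 3. In those fits 1835 of 25037 genes (without control replicate 1) to 2741 of 25353 (without TTC3 shRNA replicate 3) were higher. With library totals alone 1 rose, where 10.4% of all genes were higher.

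The genes whose pattern over the 6 libraries was most like that of MT2A were not metal genes. By the root mean square difference in log2 CPM from each gene's control mean, among 11661 genes with a mean of at least 5 CPM, the nearest was the linker histone gene H1-2 (0.0196), followed by the ribosomal protein gene RPS15 (0.0273), SURF2 (0.0398), the polarity gene SCRIB (0.0400) and the cell death gene BAD (0.0433). H1-2 was at 1.11, 1.84 and 2.07 times its control mean in TTC3 shRNA replicates 1, 2 and 3, where MT2A was at 1.08, 1.86 and 2.08 times. SCRIB has a transcript of 5143 bases, against 581 for MT2A, and the other 4 have transcripts of 510.0 to 929 bases. GC content was 66.7% for SCRIB, 65.8% for BAD, 61.6% for RPS15, 60.8% for SURF2, 57.5% for H1-2 and 55.8% for MT2A. Protein-coding transcripts of at least 65% GC had median log2 differences of -0.04, 0.56 and 0.67 in replicates 1, 2 and 3. Those of 55 to 60% GC had 0.04, 0.26 and 0.28. The part of length or GC content in the likeness was not tested.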

How the data were processed

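RNA sequencing counts of 6 PC3 libraries were used, 3 per group, grouped and numbered by their titles. Trim Galore, STAR, StringTie and hg38 were used per the submitters' processing notes; their versions, settings, annotation and strand use were not given in the sources used here. Deposited values are estimated counts per gene and per transcript as whole numbers, not scaled for depth, with 0 columns of other samples.

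Estimated counts were tested with edgeR 4.0.16 (R 4.3.3): filterByExpr defaults (24325 genes), TMM, quasi-likelihood F test, Benjamini-Hochberg adjustment over all tested genes, threshold 0.05, no block. An SE is the log2 fold change divided by the square root of F. The script was tested on simulated data. Positions, lengths, GC content and coding sequences came from GENCODE 29 by identifier without version, and promoters from RefSeq. Length and GC trends were lowess curves (span 0.5). Replicates of a group differed by more than sampling noise (median chi-square 3.85 to 32.4 times it).

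Members, lists and tests were chosen with earlier results of these data known. Named genes were all members, any tested zinc transporter, up to 4 per further list by adjusted p and 5 genes most like MT2A; metallothioneins at 0 and cell type markers were named besides, after their values were seen. Alternatives used DESeq2 1.42.0, limma-voom 3.58.1, other scalings and filters, and each library left out. Some items are not reported here.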

Additional observations from a re-analysis of the deposited data

How the results depend on the processing

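In all, 8165 genes passed (3827 higher, 4338 lower). The number was 2033 against a fold of 1.5 (glmTreat), 4082 at an adjusted p of 0.01 and 4546 to 13739 with 1 library left out. With library totals alone 2518 were higher and 5356 lower, and with the length trend removed 2933 were higher and 5026 lower. Of the 7 tested members 5 passed; the number was 2 with library totals alone, 2 with no filter on low counts (8 tested), 1 with glmTreat, 2 at an adjusted p of 0.01, and 2 to 7 with 1 library left out. DESeq2 called 6 and limma-voom 4, where 9719 and 8246 of 24325 genes passed. With no filter on low counts 6910 of 39887 genes passed. SLC39A10, at -0.38 without TTC3 shRNA replicate 1, reversed sign without TTC3 shRNA replicate 2 (0.04), without replicate 3 (0.06) and with length and GC trends removed (0.07), and MT1X reversed with both trends removed (-0.01), a setting chosen after seeing the data; the cause was not tested. The other 5 tested members kept their direction in all 19 alternatives. Same-numbered libraries correlated at 0.136, 0.123 and 0.0322, not all above 0.1, and not every library correlated best with its own number, so the numbers were not taken as pairs. With the replicate block 6929 genes and 4 members passed, SLC30A1 being lost. Among the members only MT1E, MT1G and MT1M had too few counts to be tested.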
